A study of Mus musculus with 39 samples.

Results

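The collagen genes are described here over 4 mouse tissues. They were taken as every gene whose symbol reads Col, a number, a and a number, which gave 44 of 24537 genes in the deposited table of kidney, liver and lung and the same number, 44 of 52508, in the separate table of skin. The study asked how old mice without perforin, the pore protein that cytotoxic lymphocytes use to kill target cells, respond to removal of senescent cells. All 39 libraries came from male C57BL/6 mice with the Prf1-/- genotype, so the young controls lack perforin too and no library with intact perforin is described here. Young mice were 3 months old (n = 4 in kidney, liver and lung, n = 3 in skin). Old vehicle mice were 20 months old (n = 3 in each tissue) and were injected with the vehicle solution alone from 18 months of age. Their schedule was that given next for ABT-737. No injection is named for the young mice, so age and vehicle injection cannot be told apart where old vehicle and young mice are compared. Old ABT-737 mice (n = 3 in each tissue) received 25 mg/kg of ABT-737, an inhibitor of the anti-apoptotic BCL-2 family proteins, from 18 months of age on 2 consecutive days a month for 2 months, and were also 20 months old. Poly(A) RNA of whole perfused tissue was sequenced from its 3′ ends by a bulk form of MARS-seq, so a count stands for the 3′ end of a transcript, whatever its length, and whether it is a read or a molecule is not given in the sources used here.

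Collagens are triple-helical proteins of the extracellular matrix. Fibrillar collagens form the cables that give a tissue its tensile strength, collagen IV forms the sheet of every basement membrane, collagen VI forms beaded filaments around cells, and FACIT collagens decorate the fibrils. Fibroblasts and their relatives make most fibrillar collagen, whereas endothelial and epithelial cells make much of the collagen IV beneath them, and collagen accumulation is the hallmark of fibrosis. Because the RNA was taken from bulk tissue, fewer cells of a type and less RNA per cell cannot be told apart in any value given here.

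The start regions of 4 loci are shown because their genes carry the results below. Col1a2 encodes the second chain of collagen I, and Col27a1 a fibrillar collagen that changed in more than 1 tissue. The Col4 genes lie in head-to-head pairs, so the distance between their starts is a property that the choice by symbol did not use. All sequences are RefSeq sequence on GRCm38.p6, written 5′ to 3′ in lower case, and capitals mark the motif CCAAT, the motif TATAAA and the motif GGGCGG on either strand. The first line gives the 250 bases before the start of Col1a2 (chr6:4505368-4505617, plus strand), the second the 250 bases before Col27a1 (chr4:63215162-63215411, plus strand), the third the bases between the starts of Col4a4 and Col4a3 (chr1:82586850-82586920, strand of Col4a3), and the last the stretch that belongs to both the Col4a1 and the Col4a2 transcript (chr8:11312805-11312826, strand of Col4a2).
Col1a2: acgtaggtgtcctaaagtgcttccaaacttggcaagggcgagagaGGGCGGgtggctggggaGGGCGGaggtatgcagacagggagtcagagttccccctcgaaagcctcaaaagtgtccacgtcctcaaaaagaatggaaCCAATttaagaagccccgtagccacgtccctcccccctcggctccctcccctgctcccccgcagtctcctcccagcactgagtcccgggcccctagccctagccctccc
Col27a1: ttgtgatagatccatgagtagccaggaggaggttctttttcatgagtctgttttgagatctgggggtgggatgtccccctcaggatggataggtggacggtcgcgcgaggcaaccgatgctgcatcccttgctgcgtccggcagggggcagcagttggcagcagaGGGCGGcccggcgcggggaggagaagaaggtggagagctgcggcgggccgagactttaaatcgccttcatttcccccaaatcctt
Col4a3-Col4a4: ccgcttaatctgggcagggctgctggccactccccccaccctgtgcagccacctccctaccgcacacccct
Col4a1-Col4a2: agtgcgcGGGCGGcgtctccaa
The window before Col1a2 held GGGCGG at 2 places and CCAAT at 1, that before Col27a1 held GGGCGG at 1 place, and the 71 bases between Col4a4 and Col4a3 held none of the 3 motifs. In RefSeq, the transcripts of Col4a1 and Col4a2, on opposite strands, shared 22 bases, whereas the starts of Col4a6 and Col4a5 were 1342 bases apart. The gene models used for skin differ: those of Col4a1 and Col4a2 did not overlap, and those of Col1a2, Col27a1 and Col4a3 began at other bases. In the RefSeq promoter table, 35 of the 44 members were matched, with 38 start sites. GGGCGG stood in the 250 bases before the start in 57.9% of these against 32.7% of all 32851 promoters, CCAAT in 34.2% against 33.8%, and TATAAA in 13.2% against 12.4%. These are counts of letters and say nothing of which factor binds.

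Liver libraries were the shallowest, with 223957 to 891116 total counts. Kidney libraries held 1431814 to 3513311 counts, lung libraries 1046508 to 2600092 and skin libraries 1493411 to 3842808. The number of members with at least 1 count was 30 to 34 per kidney library, 11 to 21 per liver library, 30 to 35 per lung library and 34 to 40 per skin library. Among the 45 pairs of libraries of the same tissue and group, none were identical or within sampling noise of each other. The defining markers of each labelled tissue were present in every group (tubule genes in kidney, hepatocyte genes in liver, surfactant and other alveolar genes in lung, basal keratinocyte keratins in skin). Skin also held skeletal muscle transcripts, at a summed 40590 to 57371 CPM (each count scaled to the size of its library) in young libraries against 6369 to 28178 CPM in vehicle and 10502 to 31264 CPM in ABT-737 libraries. Lung ABT-737 replicate 4 held 4263 CPM of adipocyte genes against 61.3 to 169 in the other lung libraries. Levels are given as CPM, not divided by transcript length, and the skin table was not compared in level with the other table.

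After the filter on low counts, 21 kidney members, 5 liver members, 25 lung members and 27 skin members could be tested. Of the 44, 29 were tested in at least 1 tissue and 5 in all 4 (Col4a1, Col4a2, Col5a3, Col18a1 and Col27a1). The remaining 15 were tested in none, and among them were Col2a1, Col9a1, Col9a2 and Col9a3 and Col10a1, which are collagens of cartilage. Members that did not pass had mean levels of at most 3.37 CPM in kidney (Col26a1), 12.1 CPM in liver (Col1a1), 5.15 CPM in lung (Col8a1) and 3.38 CPM in skin (Col8a1). Members at 0 counts in all libraries of a tissue numbered 7 for kidney, 18 for liver, 5 for lung and 1 for skin (Col10a1).

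Each tissue was led by a different set of collagens, taken here as means over all libraries of the 3 groups. Col18a1, whose product carries heparan sulphate and lies in basement membranes, held 81.7% of all collagen CPM in liver (mean 1007 CPM) and 17.6% in kidney (219 CPM), where Col4a4 followed at 189, Col4a1 at 187, Col4a3 at 141 and Col4a2 at 134 CPM. Within kidney groups Col18a1 averaged 197, 267 and 201 CPM in young, vehicle and ABT-737 mice and Col4a4 188, 178 and 202 CPM, so their order was not the same in all groups. In lung Col4a2 (460 CPM) and Col4a1 (372 CPM) led, followed by Col1a2 at 182, Col6a2 at 172 and Col1a1 at 143 CPM. In skin the fibrillar genes Col1a1 (3339 CPM), Col1a2 (1814 CPM) and Col3a1 (898 CPM) held 44.9%, 24.4% and 12.1% of the collagen CPM. The leading member of each tissue was the same when CPM was divided by transcript length, but 3′ counts do not scale with length, so this does not test the ranking.

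In young mice, the kidney, liver and lung libraries were fitted together so that tissues could be compared directly (25 members tested). The fit treated all libraries as independent, though whether same-numbered libraries of different tissues came from the same animal is not given. CPM here uses the library sizes of that fit and so is not on the scale of the fits by tissue. Col18a1 was 1213 ± 103 CPM in liver, 177 ± 12.1 CPM in kidney and 51.9 ± 6.52 CPM in lung (SD, n = 4 each), and the ranges of the 3 tissues did not overlap. Its level in lung was lower than in liver by a log2 fold change of -4.55 (adjusted p = 3.63e-17, quasi-likelihood test of edgeR, Benjamini-Hochberg adjusted), in kidney lower than in liver by -2.78 (adjusted p = 1.73e-12), and in lung lower than in kidney by -1.77 (adjusted p = 2.15e-08). Thus the order liver, kidney, lung held at each step. Col6a2, a chain of the beaded filaments, ran the other way: it was 205 ± 41.5 CPM in lung and 10.9 ± 1.62 CPM in kidney, a log2 difference of 4.22 (adjusted p = 1.11e-12). In young liver it was 4.15 ± 2.56 CPM, on 1 to 3 counts per library.

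The chains of collagen IV divided the tissues further. Col4a1 and Col4a2, the chains found in most basement membranes, were higher in young lung than in young kidney by 1.17 and 2.09 on the log2 scale. Col4a3, which with Col4a4 and Col4a5 forms the network of the mature glomerular and alveolar basement membrane, was instead lower in lung (33.6 ± 5.76 CPM) than in kidney (127 ± 14.9 CPM), by -1.93 (adjusted p = 1.29e-05, same test). Its neighbour Col4a4 was 169 ± 16.8 CPM in kidney and 126 ± 30.8 CPM in lung, with overlapping ranges. Col4a3, Col4a4, Col4a5 and Col4a6 had 0 counts in all 10 liver libraries. Against a floor of 3 counts in each library, which in the shallowest young liver library is 7.82 CPM of the joint fit, Col4a4 was therefore at least 21.6-fold higher in young kidney and at least 16.1-fold higher in young lung than in young liver, and Col4a3 at least 16.3-fold and at least 4.29-fold.

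Across the 25 members, 12 were higher and 3 lower in young kidney than in young liver, against 27.6% higher and 13.7% lower among all 13107 genes tested, and 8 of these calls had liver at or below the floor. In young lung against young kidney 14 were higher and 3 lower (all genes 32.6% and 31.7%), with 1 at the floor. The 3 lower were Col4a3, Col15a1 and Col18a1, while the fibrillar Col1a1, Col1a2, Col3a1 and Col5a1 were higher by 2.09, 1.82, 2.96 and 2.36 on the log2 scale. In young lung against young liver 19 were higher and 2 lower (all genes 37.6% and 24.6%), with 13 at the floor, and the 2 lower were Col18a1 and Col5a3. Col27a1 passed in none of the 3 pairs, with 68.6 ± 17.9 CPM in kidney, 72.2 ± 12.3 CPM in liver and 43.2 ± 6.80 CPM in lung.

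The summed level of the collagen genes followed a separate course in each tissue. In lung the sum was 2799 ± 282 CPM in young, 1351 ± 317 CPM in vehicle and 1912 ± 367 CPM in ABT-737 mice (SD, n = 4, 3 and 3), and all 6 old libraries were below all young ones. In liver the sums were 1052 ± 45.6, 1340 ± 172 and 1365 ± 39.5 CPM, and all old libraries were above all young ones. Kidney groups overlapped at 1206 ± 65.7, 1335 ± 262 and 1195 ± 114 CPM. Skin sums were the most dispersed, at 5934 ± 3089, 8173 ± 4130 and 8208 ± 4149 CPM, with overlapping groups.

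**Figure D1:**
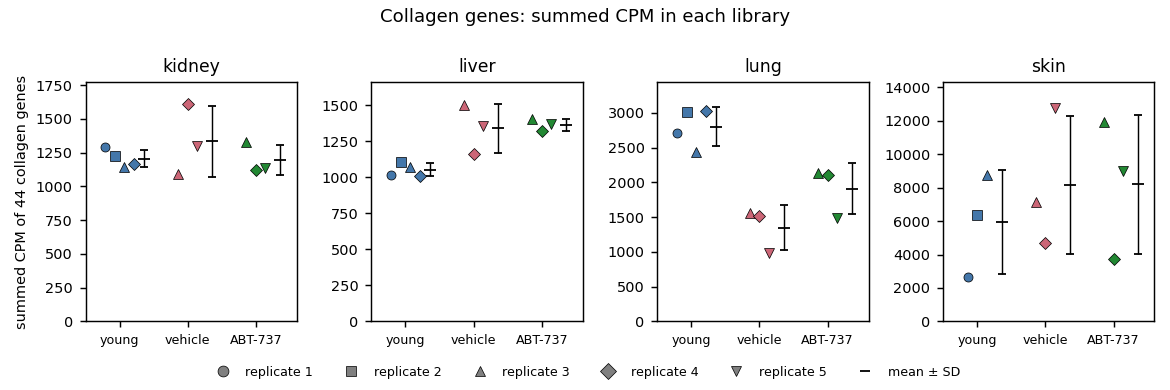
Summed CPM of the 44 collagen genes in each library (points, shape by replicate number) with the group mean and SD (bars), for kidney, liver, lung and skin, each on its own axis from 0. In lung the old libraries lie below the young ones (mean 2799 CPM), and in liver above them (young mean 1052 CPM).

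Lung of old vehicle mice held less collagen RNA than young lung. Of the 25 members tested, 9 fell and none rose, so 36.0% were lower, against 4.73% lower among all 11949 genes tested. Estimates were negative for 22 of 25 members (88.0%, against 47.7% of all genes), with a median log2 fold change of -0.98 against 0.04 over all genes. The groups did not overlap, with vehicle lower, for 15 members (all genes 14.7%). The lung was also the tissue in which the calls spread over the most classes: 4 of 7 fibrillar members, 3 of 6 collagen IV chains, 1 of 3 collagen VI chains and 1 of 4 FACIT members fell.

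Among the fibrillar genes, Col27a1 (chr4:63215412-63334990, plus strand) fell most. Its level was 43.9, 55.3, 52.8 and 63.5 CPM in young replicates 1 to 4 and 19.3, 17.0 and 6.32 CPM in vehicle replicates 3 to 5. Every vehicle library was below every young one, and replicate 5 was the lowest. The fall was 3.85-fold (log2 fold change -1.95 ± 0.35 SE, adjusted p = 0.00433, quasi-likelihood test of edgeR, Benjamini-Hochberg adjusted). Col5a1 (chr2:27886425-28039510, plus strand), a chain that nucleates collagen fibrils, was 80.4, 77.4, 57.7 and 83.7 CPM in young and 26.7, 32.0 and 16.7 CPM in vehicle libraries, again without overlap (2.98-fold lower, -1.58 ± 0.36, adjusted p = 0.0120).

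The chains of collagen I fell together. Col1a1 (chr11:94936224-94953042, plus strand) was 238, 245, 177 and 199 CPM in young and 120, 60.9 and 110 CPM in vehicle libraries, a 2.22-fold fall (-1.15 ± 0.28, adjusted p = 0.0154, same test). Col1a2 (chr6:4505618-4541543, plus strand) was 239, 253, 201 and 300 CPM in young and 153, 93.3 and 132 CPM in vehicle libraries, a 1.97-fold fall (-0.98 ± 0.26, adjusted p = 0.0234). For both chains the groups did not overlap, and vehicle replicate 4 was lowest. Col3a1, the partner of collagen I in distensible tissue, was 158, 218, 113 and 213 CPM against 119, 46.0 and 82.1 CPM, where vehicle replicate 3 reached into the young range, and did not pass (-1.10 ± 0.34, adjusted p = 0.0504). The remaining 2 tested fibrillar members, Col5a2 and Col5a3, had negative estimates and did not pass.

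In the basement membrane network, Col4a4, Col4a6 and Col4a2 fell. Col4a4 (chr1:82450723-82586849, minus strand) was 128, 208, 129 and 165 CPM in young and 53.3, 70.7 and 18.6 CPM in vehicle libraries, with no overlap (3.32-fold lower, -1.73 ± 0.43, adjusted p = 0.0181, same test). Col4a2 (chr8:11312805-11449287, plus strand) was 611, 641, 592 and 699 CPM against 306, 395 and 138 CPM, also apart (2.28-fold lower, -1.19 ± 0.37, adjusted p = 0.0479). Col4a6 (chrX:141165403-141474076, minus strand) was a low gene, at 7.31, 4.14, 9.16 and 7.75 CPM in young and 3.33, 2.13 and 0.372 CPM in vehicle libraries, the latter on 5, 5 and 1 counts (-1.98 ± 0.61, adjusted p = 0.0465).

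The other 3 collagen IV chains did not pass in lung. Col4a1 (chr8:11198423-11312826, minus strand), the partner chain of Col4a2, was 519, 474, 441 and 485 CPM in young and 257, 376 and 172 CPM in vehicle libraries, without overlap (-0.84 ± 0.31, adjusted p = 0.0852). Col4a3 (chr1:82586921-82722059, plus strand), which shares a start region with Col4a4 as printed above, was 32.2, 44.9, 49.1 and 41.3 CPM in young and 85.3, 23.9 and 22.7 CPM in vehicle libraries, with vehicle replicate 3 highest and the other 2 lowest of all 7 (0.04 ± 0.48, adjusted p = 0.965). The count ratio of Col4a3 to Col4a4 was 0.216 to 0.381 in young lung and 1.60, 0.337 and 1.22 in vehicle replicates 3, 4 and 5. Replicate 4 lay within the young range and the other vehicle libraries above it. Col4a5, on the X chromosome next to Col4a6, had an estimate of -0.55 (adjusted p = 0.395).

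Col6a2 (chr10:76595756-76623404, minus strand) was 204, 325, 237 and 256 CPM in young and 84.0, 143 and 65.0 CPM in vehicle lung (2.62-fold lower, -1.39 ± 0.41, adjusted p = 0.0373, same test). The FACIT gene Col16a1 (chr4:130047840-130099277, plus strand) was 23.4, 24.9, 18.9 and 11.4 CPM against 11.3, 5.54 and 8.55 CPM (2.34-fold lower, -1.23 ± 0.38, adjusted p = 0.0471). In both genes vehicle libraries were all below young ones, by a narrow margin for Col16a1. The transmembrane collagen Col13a1, at 20.0 to 34.5 CPM in young and 3.72 to 17.3 CPM in vehicle libraries, did not pass (-1.26 ± 0.43, adjusted p = 0.0684). The 3 positive estimates in lung were those of Col4a3, Col8a2 (0.31) and Col20a1 (0.34).

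**Figure D2:**
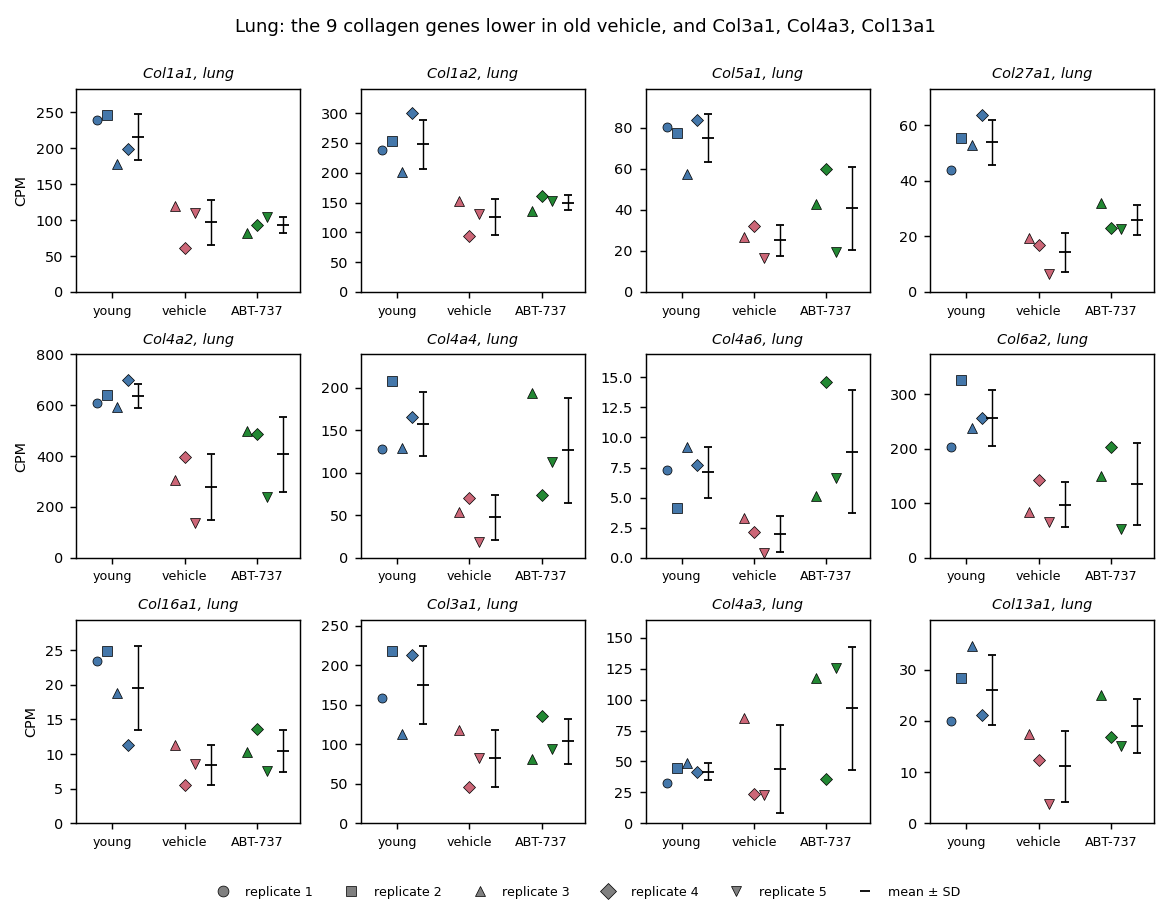
CPM in each lung library (points, shape by replicate number) with the group mean and SD (bars) for the 9 collagen genes that were lower in old vehicle than in young mice, and for Col3a1, Col4a3 and Col13a1, each axis from 0. Vehicle points lie below all young points for the 9 genes, as for Col27a1 with 6.32 to 19.3 against 43.9 to 63.5 CPM, whereas Col4a3 overlaps.

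Vehicle replicate 5 weighed on these calls, since 2 of the 9 remained without it (Col27a1 and Col1a1), while 3 calls were made without young replicate 1 or young replicate 2 and 5 without young replicate 4. With the replicate number as a block 1 of the 9 passed, Col27a1. Col27a1 also passed in all 10 fits that left out 1 lung library (adjusted p at most 0.0279). Markers of other cells also moved in lung. The summed leukocyte markers were 265 to 338 CPM in young and 475 to 1259 CPM in vehicle libraries, highest in replicate 5, and 4 of 5 listed genes rose. The endothelial markers summed to 995 to 1185 CPM in young and 294 to 889 CPM in vehicle libraries, with 5 of 5 estimates negative and none passing. Smooth muscle markers summed to 492 to 785 CPM and 188 to 451 CPM, whereas fibroblast markers, a list that holds the collagen gene Col14a1, overlapped at 481 to 592 CPM and 367 to 558 CPM. The part of these markers in the collagen values was not tested.

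In lung, ABT-737 was followed by estimates above the vehicle group for most collagens, but none passed the test. Of 25 members, 23 had positive estimates (92.0%, against 52.8% of all genes), with a median log2 fold change of 0.54 against 0.04 over all genes. No gene of the 11949 passed in this comparison (0% called). At an unadjusted p under 0.05 stood 5 members and 1919 genes in all, and DESeq2 called no member either. Endothelial markers summed to 911 to 1251 CPM in ABT-737 lung, above all vehicle libraries (294 to 889 CPM). Sums of smooth muscle (370 to 704 CPM), fibroblast (556 to 917 CPM) and leukocyte markers (291 to 623 CPM) overlapped with vehicle. The part of these markers in the collagen values was not tested. The ABT-737 libraries did not overlap with vehicle, on the higher side, for 5 members (all genes 5.16%).

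Among these was Col4a4, at 194, 73.3 and 112 CPM in ABT-737 replicates 3 to 5, each above the highest vehicle library at 70.7 CPM (1.42 ± 0.45, adjusted p = 0.156, same test). Col4a6 was 5.12, 14.7 and 6.67 CPM, above the 3.33 CPM of the highest vehicle library (2.20 ± 0.65, adjusted p = 0.141). Col27a1 was 32.0, 23.0 and 22.7 CPM, above the vehicle libraries but below the young ones (0.89 ± 0.37, adjusted p = 0.259). Col1a1 stood apart from this order, at 82.5, 93.2 and 104 CPM within the vehicle range (-0.05 ± 0.29, adjusted p = 0.948). Leaving out ABT-737 replicate 4, the library with adipocyte transcripts, gave 2 calls.

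Against young lung, 1 member fell in ABT-737 mice, Col1a1 (2.30-fold lower, -1.20 ± 0.28, adjusted p = 0.0413, same test), against 0.402% of genes lower in that comparison. Estimates were negative for 20 of 25 members (45.1% of all genes), with a median of -0.35 against 0.07 over all genes. Without ABT-737 replicate 4 there were 4 calls and without vehicle replicate 5 there were 2, whereas none was made without any 1 of the young libraries or without ABT-737 replicate 3 or 5. The 3 lung comparisons share libraries, so their values are not independent of each other.

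In kidney, few collagens moved. Of 21 members tested, 1 rose and 1 fell in vehicle against young mice, while 7.75% of all genes rose and 5.5% fell, and the median over members was 0.09 against 0.01 over all genes. Col27a1 rose. It was 88.3, 86.3, 83.0 and 47.3 CPM in young and 121, 134 and 141 CPM in vehicle libraries, without overlap and with young replicate 4 low (1.72-fold, 0.79 ± 0.19, adjusted p = 0.0127, same test). Col4a5 (chrX:141475419-141689235, plus strand), the X-linked chain of the glomerular network, fell. It was 8.10, 11.8, 16.0 and 11 CPM in young and 4.69, 5.44 and 4.67 CPM in vehicle libraries, on 19 to 55 and 8 to 12 counts, without overlap (2.43-fold lower, -1.28 ± 0.31, adjusted p = 0.0111). Neither passed without vehicle replicate 5, and without vehicle replicate 3 there were 4 calls.

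None of the other collagen IV chains of the kidney passed. Col4a3 was 121 to 153 CPM in young and 129 to 132 CPM in vehicle libraries (-0.12), and Col4a4 166 to 209 CPM and 142 to 200 CPM (-0.08). The estimates of Col4a1 and Col4a2 were 0.09 and 0.05. The ratio of Col4a3 to Col4a4 counts was 0.727 to 0.803 in young and 0.660 to 0.909 in vehicle kidney, with overlap. Podocyte markers, which belong to the cells that make the glomerular network, summed to 266 to 294 CPM in young and 273 to 382 CPM in vehicle libraries, and leukocyte markers to 74.3 to 88.6 CPM and 140 to 173 CPM. Col18a1, the leading kidney member, was 178 to 210 CPM in young and 199, 316 and 287 CPM in vehicle libraries and did not pass (0.44 ± 0.16, adjusted p = 0.0794). The genes of collagen I did not pass either, with estimates of 0.02 for Col1a1 and 0.11 for Col1a2.

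After ABT-737, no kidney member passed against vehicle (1.35% of genes called, lowest adjusted p of a member 0.182). Estimates were negative for 14 of 21 members (48.8% of all genes), with a median of -0.31 against 0.01, and 6 members had an unadjusted p under 0.05, as did 14.8% of all genes. DESeq2 called no member in this comparison, and leaving out vehicle replicate 3 gave 2 calls. Col1a2 had the lowest adjusted p (log2 fold change -0.73 ± 0.25, adjusted p = 0.182), and its groups did not overlap (all genes 8.47% on the lower side). Col4a5 was 6.13, 8.37 and 9.29 CPM, above all vehicle libraries and without passing (0.70 ± 0.35, adjusted p = 0.380). Fibroblast markers, with Col14a1 among them, summed to 68.1 to 73.0 CPM after ABT-737 and 91.5 to 180 CPM in vehicle kidney. Leukocyte markers summed to 73.4 to 99.1 CPM and 140 to 173 CPM, while endothelial and podocyte sums overlapped. The part of these markers in the collagen values was not tested. Against young kidney, Col27a1 was higher after ABT-737 too, at 167, 128 and 120 CPM (1.80-fold, 0.85 ± 0.19, adjusted p = 0.0276, same test), the only member called, against 1.38% of genes higher. It no longer passed without young replicate 2, 3 or 4 or ABT-737 replicate 3, and without vehicle replicate 4 there were 2 calls.

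In skin the members that moved were not the abundant fibrillar ones. Of 27 members tested, 3 fell and none rose in vehicle against young skin (11.1% lower, against 5.34% of genes). The groups did not overlap, with vehicle lower, for 8 members, while 20% of all genes did so. The 3 that fell were Col17a1, Col8a2 and Col20a1. Estimates of the fibrillar class were positive for 8 of 8 members (53% of all genes) with a median of 0.96 against 0.05 over all genes, and no fibrillar member passed.

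Col17a1 (chr19:47644344-47692094, minus strand) encodes a transmembrane collagen of the hemidesmosome, which fixes basal keratinocytes to the basement membrane. It was 507, 650 and 502 CPM in young replicates 1 to 3 and 168, 258 and 180 CPM in vehicle replicates 3 to 5, wholly apart (2.74-fold lower, -1.45 ± 0.37, adjusted p = 0.0367, same test). Col7a1 (chr9:108953586-108984875, plus strand), the anchoring fibril beneath the hemidesmosome, was 210, 190 and 129 CPM against 47.4, 51.5 and 107 CPM, also apart but past no threshold (-1.35 ± 0.48, adjusted p = 0.0916). Basal keratinocyte markers, a list that holds Col17a1 itself, summed to 13300.2 to 16917 CPM in young and 9057 to 17218 CPM in vehicle skin. The part of keratinocyte content in these values was not tested.

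Col8a2 (chr4:126286793-126316330, plus strand), a short-chain network collagen, was 7.88, 14.2 and 11.3 CPM in young and 3.92, 1.76 and 1.64 CPM in vehicle skin (4.68-fold lower, -2.23 ± 0.42, adjusted p = 0.0171, same test). The FACIT gene Col20a1 was 5.73, 12.0 and 5.41 CPM against 2.18, 1.76 and 1.37 CPM (4.35-fold lower, -2.12 ± 0.57, adjusted p = 0.0436). Both were low genes whose groups did not overlap. Transcripts in the skin table mostly ran past the annotated end, for 32 of the 44 members by 2000 bases, and in that stretch Col17a1 overlapped Slk and Col8a2 overlapped Adprhl2 on the opposite strand. Whether the counting used strand is not given in the sources used here, so reads of these neighbours cannot be told apart from the collagens.

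The main fibrillar genes of skin varied widely between libraries of a group, and none passed. Col1a1 was 808, 3111 and 4488 CPM in young and 3237, 1932 and 5001 CPM in vehicle skin (0.27 ± 0.62), and Col3a1 170, 471 and 815 CPM against 840, 437 and 2622 CPM (1.42 ± 0.76, adjusted p = 0.228, same test). Young replicate 1 was the lowest library for both, and vehicle replicate 5 the highest for Col3a1. The 95% interval of the log2 fold change of Col1a1, made from the SE and a normal quantile, ran from -0.95 to 1.5. Such an interval is narrower than the F test would give. Col6a3, a chain of collagen VI, was 6.44, 10.8 and 24.3 CPM against 58.3, 19.0 and 153 CPM and did not pass (2.43 ± 0.73, adjusted p = 0.0584). The ratio of Col1a1 to Col1a2 counts was 2.23 to 2.45 in young and 1.43 to 1.94 in vehicle skin, without overlap. Beside these, fibroblast markers summed to 352 to 932 CPM in young and 804 to 1973 CPM in vehicle skin, hair follicle keratins and Lef1 to 5.70 to 152 CPM and 27.1 to 8049 CPM, and muscle genes stood as given above. These lists overlapped between groups or, for muscle, were lower in vehicle skin, and 2 others were wholly apart: endothelial markers summed to 38.0 to 64.0 CPM in young and 98.3 to 141 CPM in vehicle skin, and leukocyte markers to 26.5 to 74.8 CPM and 129 to 316 CPM. The fibroblast list holds a collagen gene, Col14a1. Their part in the values was not tested.

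Of the collagen IV chains in skin, Col4a1 and Col4a2 had positive estimates (0.72 and 0.81) and Col4a4, Col4a5 and Col4a6 negative ones (-1.21, -1.04 and -1.22), and none passed, with Col4a6 nearest at an adjusted p of 0.0517 (same test). Col4a1 was 80.2, 64.4 and 78.4 CPM in young and 87.5, 85.3 and 193 CPM in vehicle libraries, the latter all higher. The calls in skin rested on single libraries: none of the 3 remained without young replicate 1, young replicate 2 or vehicle replicate 5, and 1 call was made without vehicle replicate 3. Leaving out vehicle replicate 4 or ABT-737 replicate 3 gave 6 calls each, and DESeq2 on all libraries called 11 members.

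No gene of the 14224 tested in skin passed for ABT-737 against vehicle (0% called), and the lowest adjusted p of a member was 0.476. An unadjusted p under 0.05 was reached by 3 members and 1131 genes, and DESeq2 called no member. Col23a1 (chr11:51289920-51585918, plus strand), a transmembrane collagen, was 23.9, 30.7 and 25.7 CPM in vehicle and 20.6, 9.31 and 16.3 CPM in ABT-737 skin, all lower (-0.78 ± 0.32, adjusted p = 0.589, same test). Against young skin it fell (53.0, 55.3 and 30.7 CPM, 2.96-fold lower, -1.57 ± 0.32, adjusted p = 0.0325), as did Col8a2 at 3.60, 3.10 and 3.32 CPM (3.31-fold lower, -1.73 ± 0.40, adjusted p = 0.0419), so 2 members were lower against 3.18% of genes. In the skin table Col23a1 overlaps Phykpl on the same strand. Neither passed without any 1 of the young libraries or without ABT-737 replicate 4 or 5, and 4 members passed without ABT-737 replicate 3. Basal keratinocyte markers summed to 5978 to 11273 CPM in ABT-737 skin, below all young libraries (13300.2 to 16917 CPM). Hair follicle markers summed to 23.1, 18557.5 and 14893 CPM in ABT-737 replicates 3 to 5 and 5.70 to 152 CPM in young skin. Muscle genes, as given above, were lower than in young skin. Fibroblast, endothelial and leukocyte sums overlapped with young. The part of these markers in the collagen values was not tested.

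In liver, the 5 members that could be tested gave no call in any comparison, while 22.6% of all genes were called for vehicle against young, 3.85% for ABT-737 against vehicle and 8.4% for ABT-737 against young. At an unadjusted p under 0.05 stood 1, 2 and 1 members (all genes 35.5%, 16.1% and 23.9%), and DESeq2 called none. Leaving out vehicle replicate 3 gave 1 call in each comparison, as did vehicle replicate 5 in the first 2, vehicle replicate 4 in the last, and any 1 of the ABT-737 libraries for vehicle against young. Col18a1 was 829, 939, 879 and 797 CPM in young, 1214, 852 and 1198 CPM in vehicle and 1172, 1072 and 1121 CPM in ABT-737 libraries, with vehicle replicate 4 inside the young range (0.34 ± 0.21 for vehicle against young, adjusted p = 0.280, same test). Col4a1 was 16.8, 25.9, 26.7 and 16.7 CPM in young and 33.7, 51.0 and 28.5 CPM in vehicle libraries, without overlap and without passing (0.82 ± 0.35, adjusted p = 0.109). Col27a1 was 41.8 to 63.6 CPM in young, 164, 19.3 and 29.8 CPM in vehicle and 111, 137 and 154 CPM in ABT-737 libraries, where vehicle replicate 3 stood apart from its group (1.40 ± 0.47 for ABT-737 against young, adjusted p = 0.0768).

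Col1a1, Col1a2 and Col3a1, the fibrillar genes that serve as the usual readout of liver fibrosis, did not pass the filter on low counts in the liver fit. Col1a1 had 6, 6, 3 and 4 counts in young, 5, 37 and 8 in vehicle and 2, 2 and 2 in ABT-737 libraries, and vehicle replicate 4 held most of those in its group. Col3a1 had 7, 10, 9 and 11 counts in young, 0, 9 and 0 in vehicle and 0, 1 and 1 in ABT-737 libraries. For Col3a1 all young libraries held more counts than all ABT-737 libraries, and vehicle replicate 4 carried all counts of its group. Without the filter, 2 members passed in liver for vehicle against young, 3 for ABT-737 against vehicle and 2 for ABT-737 against young. Stellate cell markers, which belong to the collagen-making cells of the liver, summed to 90.7 to 115 CPM in young, 131 to 169 CPM in vehicle and 49.8 to 101 CPM in ABT-737 libraries, and their part was not tested.

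Whether the change from young to old vehicle mice was the same in different tissues was tested in the joint fit. For vehicle against young, the change in lung differed from that in kidney for 6 of 25 members (all genes 8.03%), each lower in lung. The largest was that of Col27a1, which fell in lung and rose in kidney (-2.74 ± 0.52, adjusted p = 0.00183, quasi-likelihood test of edgeR, Benjamini-Hochberg adjusted), and this difference passed whichever of the 30 libraries was left out. Col13a1 (-2.62), Col6a2 (-2.01), Col16a1 (-1.86), Col4a4 (-1.65) and Col5a1 (-1.43) also passed. The kidney side of Col13a1 rests on 1 to 4 counts in each young library and 4 to 5 in each vehicle library. Over the 30 fits that left out 1 library, Col13a1 passed in 20 and Col5a1 in 9. Without kidney vehicle replicate 4 or lung vehicle replicate 5 there were 2 such calls, and without kidney young replicate 4, kidney vehicle replicate 5 or lung young replicate 2 there were 3. Leaving out lung ABT-737 replicate 4 gave 10.

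The change in lung differed from that in liver for 7 members (all genes 11.4%), again each lower in lung: Col5a1 (-3.47), Col6a2 (-3.05), Col1a1 (-2.85), Col27a1 (-2.07), Col1a2 (-1.90), Col4a1 (-1.67) and Col4a2 (-1.58). The liver side of Col1a1, Col1a2, Col5a1 and Col6a2 rests on few counts, for example 1, 2, 1 and 3 counts of Col5a1 in young and 3, 5 and 12 in vehicle liver, and without liver vehicle replicate 4 there were 2 calls. Col4a2 passed in 8 of the 30 fits that left out 1 library. Col27a1 passed in 28, and not without liver vehicle replicate 3 or lung vehicle replicate 5. No member passed for the difference between kidney and liver (all genes 0.786%). For ABT-737 against vehicle, no member passed for the difference between kidney and liver (all genes 0.0839%), lung and kidney (0%) or lung and liver (0.29%).

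**Figure D3:**
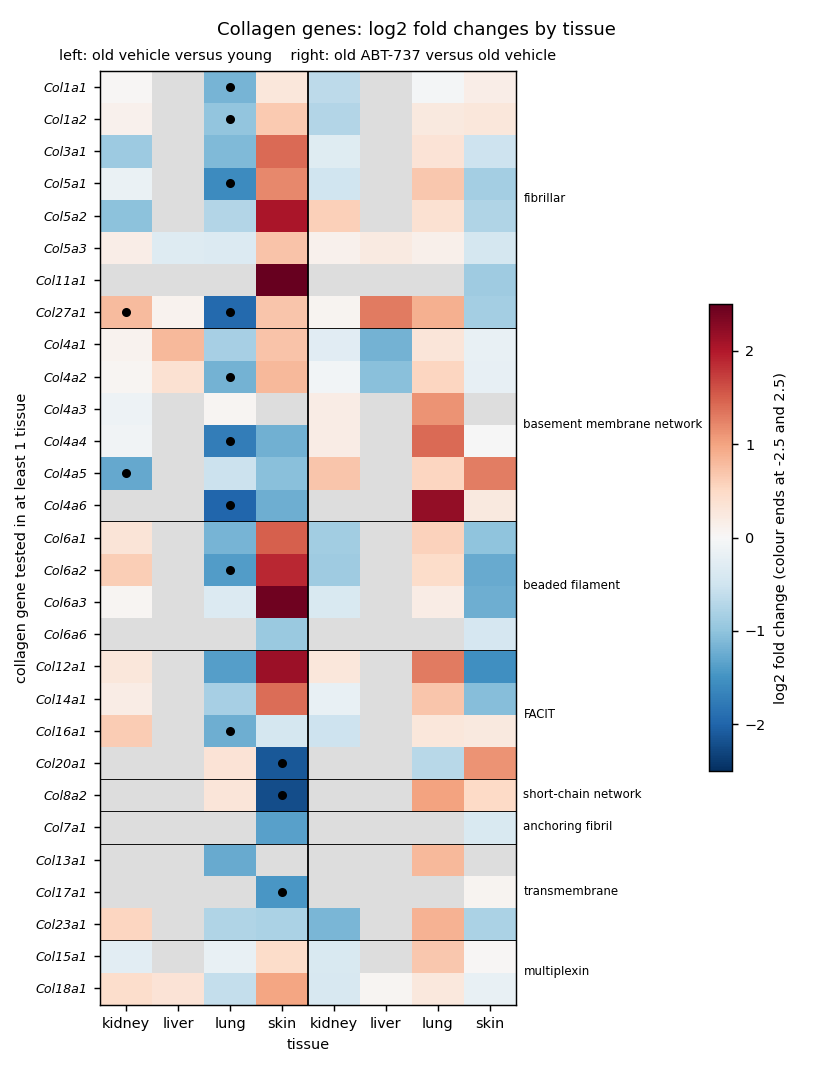
Log2 fold changes of the 29 collagen genes tested in at least 1 tissue, by class (rows) and tissue (columns), for old vehicle against young (left) and old ABT-737 against old vehicle (right). Red is higher and blue lower in the first-named group, grey was not tested, and dots mark an adjusted p under 0.05. Lung on the left carries 9 dots, all blue, and no dot stands on the right.

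The paired collagen IV genes were also followed library by library. The ratio of Col4a1 to Col4a2 counts was 0.694 to 0.851 in young lung, 0.841 to 1.25 in vehicle lung and 1.09 to 1.82 over all kidney libraries. The ratio of Col4a3 to Col4a4 in lung was 0.607, 0.486 and 1.12 in ABT-737 replicates 3 to 5, all above the young range of 0.216 to 0.381. In kidney it was 0.610 to 1.05 in ABT-737 libraries, overlapping with young. In each pair the levels of the partners share the library they were counted in, and no test was made of the ratios.

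**Figure D4:**
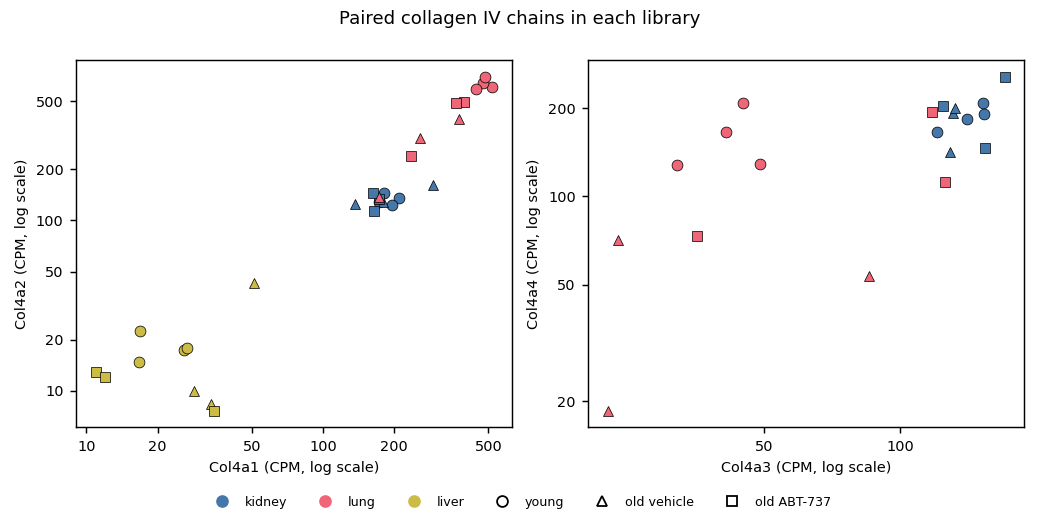
CPM of Col4a2 against Col4a1 in kidney, lung and liver (left) and of Col4a4 against Col4a3 in kidney and lung (right), 1 point per library on log axes, with colour for the tissue and shape for the group. Liver libraries hold the least Col4a1 and Col4a2 and young lung libraries the most, and in lung the vehicle libraries differ widely in Col4a3 (22.7 to 85.3 CPM).

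Genes that act on collagens were taken from 5 lists (modifying enzymes and chaperones, extracellular processing and cross-linking, receptors, matrix partners, and TGF-beta and fibrosis genes). In vehicle against young lung, where 4.73% of all genes fell, 1 of 16 tested modifying enzymes fell (Colgalt2, a collagen galactosyltransferase, -1.71). Of 9 processing genes, all with negative estimates, 2 fell: Pcolce (-1.13), the enhancer of procollagen C-proteinase, and Loxl2 (-1.57), a cross-linking lysyl oxidase. Of 15 matrix partners 3 fell, Hspg2 (-1.68), Sparc (-1.60) and Lamb1 (-1.35), which encode perlecan, a collagen-binding protein and a laminin chain. Among 7 receptors Itgb1, the beta chain of collagen-binding integrins, fell (-1.86) and Lair1, the inhibitory collagen receptor of leukocytes, rose (3.53), as did 8.15% of all genes. Of 10 TGF-beta and fibrosis genes Pdgfrb, a receptor of mural cells and fibroblasts, fell (-2.77). After ABT-737 no listed gene passed against vehicle in lung, and against young lung Pdgfrb was lower (-2.13) and Dcn, which encodes decorin, higher (1.42, all genes 2.13% higher).

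The same lists were read in the other tissues. In vehicle against young kidney, none of 17 modifying enzymes passed, whereas Loxl4 (2.56) rose among 8 processing genes, Lair1 (2.29) among 7 receptors, Thbs2 (1.83), Bgn (0.94) and Lamb1 (0.55) among 15 partners, and Timp1 (2.38), an inhibitor of matrix metalloproteinases, among 7 TGF-beta and fibrosis genes. Of all genes, 7.75% rose in vehicle against young kidney. After ABT-737, Lair1 fell against vehicle in kidney (-1.64, adjusted p = 0.0494, same test, all genes 1.21% lower) and no other listed gene passed. In skin 2 of 16 modifying enzymes (P4hb 0.85, Plod3 0.78), 1 of 10 processing genes (Lox 1.99), 2 of 6 receptors (Itga11 1.69, Ddr2 1.39), 4 of 18 partners (among them Thbs2 2.69, Fn1 1.88 and Bgn 1.76) and 2 of 10 TGF-beta and fibrosis genes (Tgfbr2 1.85, Tgfb1 1.24) rose in vehicle against young (all genes 5.84% higher), and none fell. No listed gene passed for ABT-737 against vehicle in skin. Against young skin 2 partners were higher after ABT-737, Thbs1 (2.46) and Lamb1 (1.56), among 2% of genes higher in that comparison.

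In liver, where Col1a1, Col1a2 and Col3a1 did not pass the filter, 2 of 6 modifying enzymes (Colgalt1 0.79, Plod1 0.72), 1 of 3 processing genes (Pcolce 1.80), 2 of 4 partners (Dcn 1.67, Bgn 0.71) and 1 of 2 TGF-beta and fibrosis genes (Tgfb1 1.23) rose in vehicle against young, while 11.7% of all genes did. Against vehicle, Pcolce (-3.82, adjusted p = 0.00492, same test) and Tgfb1 (-2.47, adjusted p = 0.00420) fell after ABT-737 (all genes 2.85% lower). Leukocyte markers in liver summed to 39.3 to 77.9 CPM in young, 190 to 314 CPM in vehicle and 36.7 to 57.6 CPM in ABT-737 libraries, and their part in these values was not tested.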

How the data were processed

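RNA of perfused kidney, liver, lung and skin was sequenced from its 3′ ends. The authors deposited counts per gene in 2 tables, of kidney, liver and lung and of skin. Their processing notes name bcl2fastq, HISAT 0.1.5, HOMER and mm10. Whether molecule barcodes were collapsed or strand was used is not given in the sources used here. Labels of 2 treated mice in each tissue read ABT-738 and ABT-739 and were taken as ABT-737 from the sample titles. From the deposited counts, each tissue was fitted in edgeR 4.0.16 (R 4.3.3) with its 3 groups (filterByExpr, TMM, quasi-likelihood F test, Benjamini-Hochberg adjustment over all genes tested, adjusted p under 0.05 called). Kidney, liver and lung were also fitted together, for pairs of young tissues and differences between tissues. This joint fit had no term for the animal, and it is not given whether same-numbered libraries of different tissues share one. SE is the absolute log2 fold change over the square root of F. CPM uses TMM library sizes of each fit. Scripts were tested on simulated data.

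The collagen genes and the lists of related genes and markers were chosen with earlier results of these data known. Named members are those called in a tissue or in a difference between tissues, the 5 highest in each tissue, the Col4 genes, Col7a1 and Col17a1; of related genes, at most 3 called ones per list and comparison are named, by size of change. A few further members were named after their values were seen (Col6a3, Col15a1 and those at the edge of a filter or list). Alternatives were DESeq2 1.42.0, other size factors, no filter or a minimum of 10 counts, only the 2 groups compared, the replicate number as a block, and leaving out each library. The labels do not say that replicates are separate animals, so p-values measure the spread between these samples. Same-numbered vehicle and ABT-737 lung libraries deviated together (correlations 0.176, 0.296 and 0.427). Whether these samples were paired is not given in the sources used here.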

Additional observations from a re-analysis of the deposited data

Results flagged for a closer look

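In kidney, Col27a1 in young replicate 4 stood far from the other young libraries, at 47.3 CPM against 83.0 to 88.3 CPM. Among 39 groups of 4 young libraries it was the 1 value set apart in this way, and chance alone sets apart about 1 in 20 groups. Without that library Col27a1 still passed for vehicle against young and no longer for ABT-737 against young.

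The change from young to old vehicle mice differed between tissues for several members by the test of the difference in the joint fit. Values are the log2 fold change of vehicle against young in lung minus that in the other tissue. Against kidney the differences were -2.74 for Col27a1, -2.62 for Col13a1, -2.01 for Col6a2, -1.86 for Col16a1, -1.65 for Col4a4 and -1.43 for Col5a1. Against liver they were -3.47 for Col5a1, -3.05 for Col6a2, -2.85 for Col1a1, -2.07 for Col27a1, -1.90 for Col1a2, -1.67 for Col4a1 and -1.58 for Col4a2. Over the 30 fits that left out 1 library, Col4a2 against liver passed in 8, and Col13a1 and Col5a1 against kidney in 20 and 9.

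In 3 cases among the named members the groups did not overlap in skin or in lung and lay in opposite order, though none of the estimates passed in either tissue. Because the tissues were counted in separate tables the difference was not tested. Col23a1 had a log2 fold change of -0.78 in skin and 0.88 in lung for ABT-737 against vehicle, Col27a1 -0.85 and 0.89, and Col4a1 0.72 in skin and -0.84 in lung for vehicle against young. Of 10420 genes tested in both tables, 0.326% lay in opposite order in this way for ABT-737 against vehicle (3 of 23 members, Col14a1 besides these, chosen after its values were seen) and 4.36% for vehicle against young (1 of 23 members).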

How the results depend on the processing

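Of the calls named for single members, none reversed under any setting tried, and size factors in place of TMM moved no count of calls by more than 1.5 times. Counts of called members moved as follows. For vehicle against young, kidney (2) gave 1 with a minimum of 10 counts, 1 with the replicate number as a block and 0 to 4 with 1 library left out. Liver (0) gave 2 without a filter and 0 to 1 with 1 library left out. Lung (9) gave 1 with the replicate block and 2 to 11 with 1 library left out. Skin (3) gave 11 with DESeq2, 10 without a filter, 1 with a minimum of 10 counts, 5 with only the 2 groups compared, 0 with the replicate block and 0 to 6 with 1 library left out. For ABT-737 against vehicle, liver (0) gave 3 and lung (0) gave 1 without a filter, and leaving out 1 library gave 0 to 2 in kidney, 0 to 1 in liver, 0 to 2 in lung and 0 in skin. For ABT-737 against young, kidney (1) gave 2 with DESeq2, without a filter and with 2 groups, 0 with the replicate block and 0 to 2 with 1 library left out. Liver (0) gave 2 without a filter, 1 with 2 groups and 0 to 1 with 1 library left out. Lung (1) gave 2 with DESeq2, 0 with a minimum of 10 counts, 2 with 2 groups, 0 with the replicate block and 0 to 4 with 1 library left out. Skin (2) gave 4 with DESeq2 and without a filter, 0 with the replicate block and 0 to 4 with 1 library left out. The cause was not tested. In the joint fit, young tissue pairs held in every setting within 1.5 times. With 1 library left out, differences of vehicle against young gave 0 to 1 for kidney and liver, 2 to 10 for lung and kidney and 2 to 8 for lung and liver, and those of ABT-737 against vehicle gave 0 to 1, 0 and 0 to 1.

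Replicate numbers were shared by vehicle and ABT-737 libraries. In lung the same-numbered libraries deviated together (correlations 0.176, 0.296 and 0.427), which does not show that the samples were paired. The fit with the replicate block changed no call of ABT-737 against vehicle in lung, where 0% of genes were called without it. In kidney (correlations -0.175, -0.210 and 0.0196), liver (-0.0443, 0.160 and -0.0228) and skin (-0.574, -0.577 and 0.276) same-numbered libraries did not all deviate together. Young and vehicle lung share 2 numbers (correlations 0.0637 and 0.106). Blocking on the replicate number in the vehicle and ABT-737 libraries alone, added after seeing the data, gave 0 collagen calls in every tissue. Depth limits liver most, where 39 members could not be tested.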
